A study of Lates calcarifer with 24 samples.

Results

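The transcript described here is acp5a, read by 1 probe of the 60080 on a custom Agilent array for Asian seabass (Lates calcarifer). The probe, CUST_11564_PI428621111, was found by its design name in the scanner output and takes its symbol from the study's supplementary tables. It sat on 1 spot of each array. The study had picked acp5a on these same arrays as differentially expressed against the baitfish control, so its differences from the control are given as a description with no test.

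Acp5 is the tartrate-resistant acid phosphatase, a metal-containing enzyme that removes phosphate groups at acidic pH in lysosomes and is also secreted. In mammals it is best known from osteoclasts, the cells that resorb bone, and from tissue macrophages, a cell type that also resides in the liver. In ray-finned fishes the gene is often present as a pair of paralogs, acp5a and acp5b.

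In the RefSeq gene table for Asian seabass (assembly TLL_Latcal_v3), acp5a was listed on linkage group LG5 as a protein-coding gene with 2 transcripts and 2 proteins, between syce2 and LOC108875701. Its paralog acp5b was listed on LG24 with 1 transcript, between f3a and abcd3a. The design transcripts of the array carry identifiers of their own, and 0 of them matched that table, so no genome position is given for the probe. The probe's own sequence was not analysed here, and whether acp5b transcripts also bind to it was not tested. The primer pair that the study lists for the same probe, under the symbol acp5, is shown as the only sequence at hand. Whether the primers also amplify acp5b was not tested. The study designed its primers for qPCR of array results in Groups A to D, and its qPCR values were not analysed here. Both primers are 20 bases long, and each is written 5′ to 3′ with no part in capitals.
acp5 forward primer: ttcagtggccaagcttcaac
acp5 reverse primer: agtgcgatagagagaggtgc

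Juvenile fish were full siblings from 1 pairwise cross of brooders selected for growth. They entered the feeding trial at 107 days post-hatch (dph), ate 1 feed for 61 days and gave livers at 168 dph. Each of the 6 groups had 4 arrays. The methods describe RNA from more fish per feed than that, and whether an array held 1 fish or a pool is not stated. An array is called a liver below. Groups B, C, D and E received Feeds B, C, D and E, commercial grow-out pellets, at a common daily share of body weight. Group F received Feed F, also a commercial pellet, at a smaller share. Group A, the control, received frozen baitfish (Feed A) at a larger share by wet weight. Group E had a single pellet size throughout, and the study left Groups E and F out of its own comparisons. The labels do not give the canvas or tank of each fish, so fish of 1 feed may have shared one. The p-values measure the spread between these arrays only. Group letters are used as labelled, and no transcript on the array checks them.

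The 24 arrays lay on 3 slides, and each slide held all 6 groups. Between 20.4% and 36.0% of the spots on a pellet array were well above background, against 21.6% to 29.8% on a control array. The signal at the 75th percentile was lower on slide 1 (22.2 to 32.9) than on slides 2 and 3 (42.4 to 80.2), and all groups had at least 1 array on each. Of the hepatocyte markers considered, serpina1 (alpha-1-antitrypsin, a plasma protein made by hepatocytes) was the only one with a named probe, and it was well above background on all 24 arrays. Its mean level (log2) was 17.40, 17.80, 17.13, 18.13 and 18.01 in Groups B, C, D, E and F, against 18.20 in Group A. Markers of macrophages, osteoclasts, blood and bile duct cells had no named probe and were not analysed here. In whole liver, more cells of a type that makes acp5a and more acp5a RNA per cell cannot be told apart.

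acp5a was higher in the livers of every pellet-fed group than in those of the baitfish-fed group, and it was highest under Feed D. Levels are log2 quantile-normalized intensities, a scale on which a step of 1 is a doubling. In Group B the 4 livers had 7.10, 7.05, 6.62 and 7.48. In Group C they had 6.56, 7.28, 7.35 and 6.02. Groups B and C overlapped, with replicate 4 of Group C below every liver of Group B.

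In Group D the levels were 7.86, 8.34, 7.95 and 8.00. This was the tightest of the pellet-fed groups, and its lowest liver lay above the highest liver of any other group. All 4 arrays of D lay above the 16 other pellet arrays for 0.0999% of the 60039 probes with a value on every array concerned, acp5a among them. Group D took part in the study's choice of acp5a, so nothing is read from this share. The highest of those 16 was replicate 4 of Group B.

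Group E had 7.17, 5.56, 6.78 and 6.44, the widest range of any group. Group F had 6.29, 7.34, 6.17 and 6.29, with replicate 2 well above the other 3. Both groups overlapped Groups B and C and each other.

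In Group A the 4 levels were 5.28, 5.26, 5.41 and 5.28, within 0.14 of each other. Repeat spots of other probes at such signals had a median SD of 0.41. The narrow range therefore does not show how alike the control livers were. All 20 pellet arrays lay above all 4 control arrays, which was so for 0.203% of the 60032 probes with a value on all 24 arrays. The closest approach was between replicate 2 of Group E, at 5.56, and replicate 3 of Group A, at 5.41. Each pellet group on its own lay above Group A for 1.85% (B), 1.84% (C), 3.46% (D), 1.87% (E) and 1.78% (F) of probes, acp5a included. Since acp5a was chosen for its difference from Group A, nothing is read from its place in these shares.

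**Figure D1:**
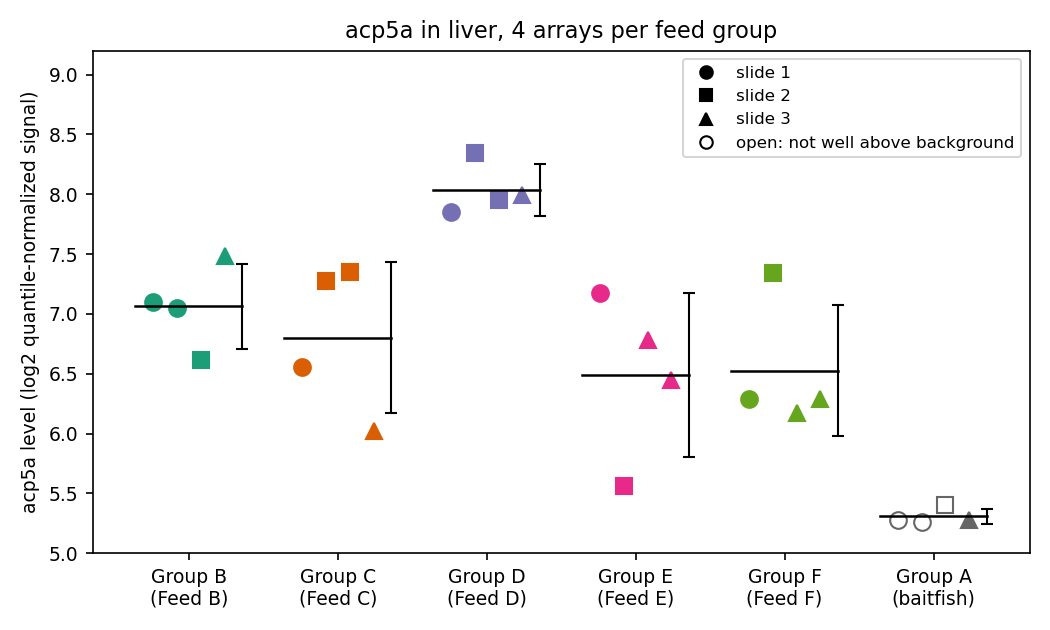
Level of acp5a (log2 quantile-normalized signal, vertical axis) in each liver of Groups B to F and Group A (horizontal axis), with the marker shape for the slide, open markers where the spot was not well above background, a line at the group mean and a bar for 1 SD. The 4 livers of Group D sit between 7.86 and 8.34, above all others, and the 4 livers of Group A sit between 5.26 and 5.41, below all others.

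The mean was 7.06 ± 0.35 for Group B, 6.80 ± 0.63 for C, 8.04 ± 0.21 for D, 6.49 ± 0.69 for E and 6.52 ± 0.55 for F, against 5.31 ± 0.07 in Group A (SD, n = 4 each). The spot was well above background on only 1 of the 4 control arrays, so the size of each fold is uncertain. Normexp background correction with an offset of 50 gives smaller ones. Group D minus Group A was 2.73 with a standard error (SE) of 0.33, a 6.63-fold higher level, and was 1.44 with normexp. For Group B the difference was 1.76, or 3.38-fold. For Group C it was 1.50, or 2.82-fold. Groups E and F, which took no part in the study's choice of acp5a, were the closest to the control.

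Group E minus Group A was 1.18, or 2.27-fold, and Group F minus Group A was 1.22, or 2.33-fold, each with the same SE of 0.33. The mean of the 5 pellet groups was 1.68 above Group A (SE 0.25), a 3.20-fold higher level. All of these differences share the 4 control arrays, and their SEs pool the spread within all 6 groups.

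The order of the means was D, B, C, F, E and A, high to low. Group D exceeded Group B by 0.97 (SE 0.33) with no overlap of their livers. The next 3 steps were smaller, at 0.26 for B over C, 0.28 for C over F and 0.04 for F over E, and the livers overlapped at each of them. The step of E over A was 1.18, with no overlap on this scale. Replicate 2 of Group E fell below the highest control array with normexp and with scaling to the 75th percentile of detected probes. Groups B, C and D took part in the study's choice of acp5a and Groups E and F did not, so this order is a description.

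Groups F and E were the pair in which neither had been used to choose the gene. Group F averaged 6.52 ± 0.55 and Group E 6.49 ± 0.69 (SD, n = 4 each). The difference of 0.04 (SE 0.33) had a 95% interval of -0.65 to 0.72, and its adjusted p was 0.999997 in limma. This SE pools the spread within all 6 groups, with a residual SD of 0.47. Groups E and F each had a larger SD than that, so the interval is likely too narrow for this pair. The exact two-sided permutation test over the 70 splits of these 8 arrays gave p = 0.943, where the smallest p possible was 0.0286. The livers of the 2 groups overlapped over most of their range. Over all probes, limma called 0 between Groups F and E after adjustment, and 2646 had a raw p below 0.05. By the methods' t-test 1493 had such a raw p, which is the study's own rule for that test, and 0 remained after adjustment. With unequal variances the counts were 1045 and 0. Each raw count is below the share of 0.05 of the 60080 probes that chance alone would give on average. Nothing is read from the raw counts.

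Detection is read from the same spot as the level, and it split along the same line. The scanner software marks a spot as well above background by comparing it with the local background and its scatter. The acp5a spot carried this mark on 4 of 4 arrays in each of Groups B, C, D, E and F, and on 1 of 4 in Group A. Of all 60080 probes, 14.3% were well above background on all 20 pellet arrays, and 0.0699% were so with at most 1 of the 4 control arrays. The control array with the mark was replicate 4. A weaker mark, for a signal that is positive and significant against background, was present on all 24 arrays, and no spot of acp5a was saturated or set aside as an outlier. In Group A the level was thus read from signals at the lower edge of what the scanner separates from background.

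Before normalization the processed signal of the spot, which the software subtracts for background and detrends across the array, is given in the scanner's intensity units with the error the software attaches. It was 89.9 ± 10.8, 76.4 ± 11.8, 119 ± 15.5 and 199 ± 21.1 in Group B. In Group C it was 57.7 ± 8.36, 203 ± 21.0, 164 ± 19.1 and 90.6 ± 14.7. In Group D it was 189 ± 19.7, 407 ± 41.6, 299 ± 31.6 and 452 ± 47.2. The lowest arrays of Groups B, C and D lay on slide 1, where signals were lower as a whole.

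In Group E the signal was 111 ± 14.6, 45.9 ± 8.33, 145 ± 15.8 and 123 ± 16.1. In Group F it was 55.6 ± 10.1, 191 ± 20.3, 89.0 ± 11.2 and 100.3 ± 14.8. In Group A it was 20.2 ± 6.34, 27.2 ± 10.3, 45.8 ± 12.3 and 40.0 ± 7.81. Replicate 2 of Group E and replicate 3 of Group A nearly met. The first was marked well above background and the second was not, but the mark did not follow the signal here. Before subtraction the median signal of the spot was 167 in the first and 188 in the second. Replicate 4 of Group A was marked at a processed signal of 40.0.

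The signal was 5.51 to 9.79 times its own error on pellet arrays, against 2.64 to 5.13 times on control arrays. As a multiple of the dimmest signal that the software marked on that array, it averaged 4.19, 4.51, 9.19, 3.39 and 3.56 times that value in Groups B, C, D, E and F, against 1.05 times in Group A. The median signal of the spot before subtraction averaged 234, 232, 424, 215 and 225 in Groups B to F, against 153 in Group A. The local background median was between 42 and 55 on all arrays, and Group D had the highest mean and Group A the lowest before subtraction as well. These means are not scaled between arrays, and Groups A and B had 2 arrays each on the dimmer slide 1, against 1 in the other groups. Single arrays of Group A ran from 123 to 188 before subtraction, which overlapped every pellet group but D.

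**Figure D2:**
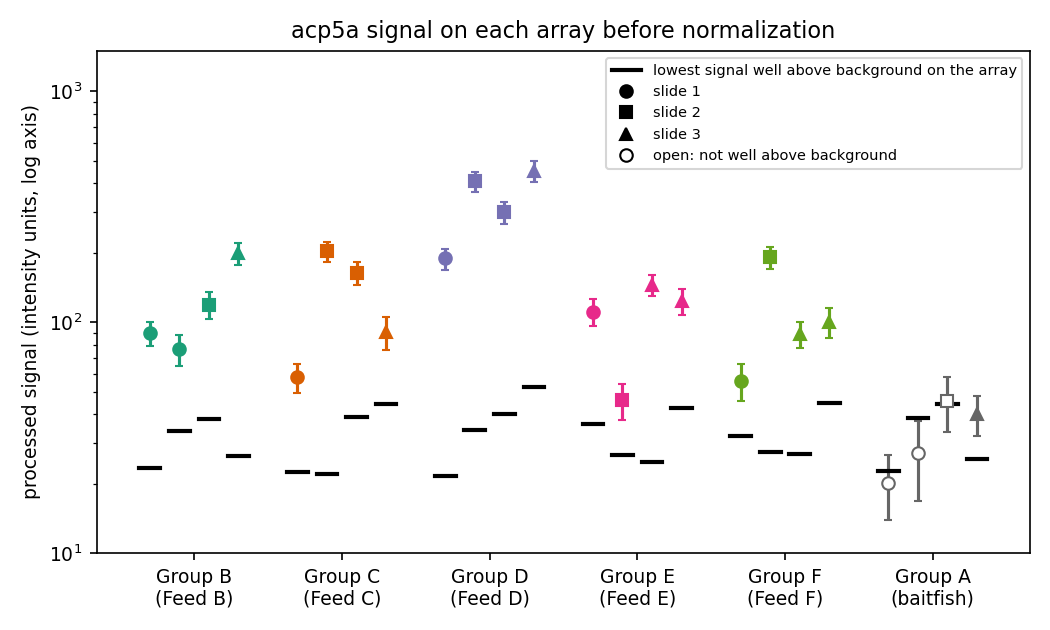
Processed acp5a signal (background-subtracted and detrended) on each array before normalization (vertical log axis, intensity units) with the scanner's error as bars, for Groups B to F and Group A, and a black line at the lowest signal well above background on that array. All 20 pellet arrays lie above their line, while 2 of the control arrays lie below it and 3 of the 4 carry open markers for a spot not well above background.

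Repeat spots give the error of a single spot. Over 300 probes printed on 6 spots per array, the SD of log2 signal between repeat spots had a median of 0.13 where the mean signal was in the range of acp5a on pellet arrays, and of 0.41 where it was in the range of the control arrays.

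On the quantile-normalized scale, each pellet group lay above the control within each slide, by as little as 0.15 for Group E on slide 2. Relative to the control arrays of the same slide, Group D was higher by 2.58 on slide 1, 2.74 on slide 2 and 2.72 on slide 3. Group B was higher by 1.80, 1.21 and 2.20, and Group C by 1.29, 1.91 and 0.74. Group D was the highest group on each slide.

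Group E was higher than the control by 1.90, 0.15 and 1.33 on slides 1, 2 and 3. The value on slide 2 was that of replicate 2 alone, and was below the median SD of 0.41 between repeat spots at control signals. Group F was higher by 1.02, 1.94 and 0.95. Which of E and F was the higher therefore changed from slide to slide. Each of these values rests on 1 or 2 arrays of a group.

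The size of the difference changed with the treatment of the signals, and its direction did not. Normexp correction of the unsubtracted signal adds an offset of 50 before the log2 step, which by itself shrinks log2 differences between dim signals. With it, Group D exceeded Group A by 1.44, Group B by 0.81, Group C by 0.61, Group E by 0.48 and Group F by 0.51. In the table of processed values that the authors deposited, the means were 7.58, 7.45, 8.27, 7.28 and 7.29 in Groups B to F, against 6.72 in Group A, and the differences were 0.86, 0.73, 1.54, 0.56 and 0.57. Group D had the highest mean and Group A the lowest under every scaling tried. Replicate 2 of Group E fell below the highest control array with normexp and with scaling to the 75th percentile of detected probes, so that 19 of 20 pellet arrays lay above all controls there.

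**Figure D3:**
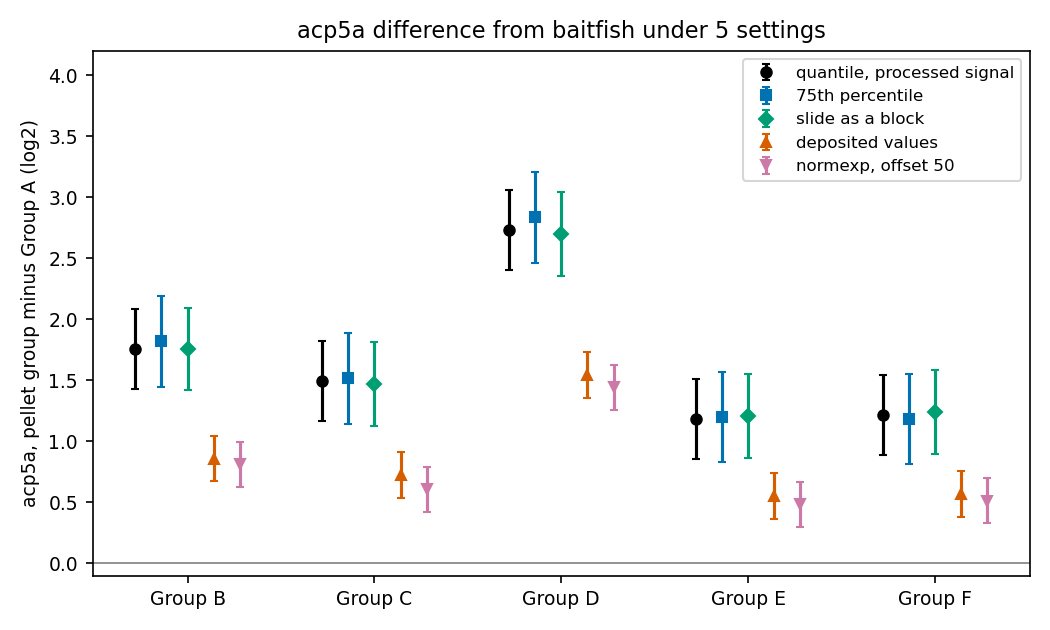
Difference in acp5a between each pellet group and Group A (log2, vertical axis) for Groups B to F under 5 treatments of the signals, with bars for 1 SE of the fit. Group D minus Group A is 2.73 with the main treatment and 1.44 with normexp, and it is the highest of the 5 groups under each.

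The study's tables give a symbol to 14 other probes, all but fads2 and elovl5 chosen by the study on these arrays, so counts over them are a description. A probe is called a differentially expressed transcript (DET) here at an adjusted p below 0.05 in limma and a change of at least 2-fold. In Group D, 9 of the 14 were DETs higher than in Group A, where 1.49% of all probes were, and 2 were DETs lower, where 0.456% were. In Group B, 2 were DETs higher (0.191% of all probes) and none lower (0.0499%). The count of 2 became 0 with the deposited values and 0 to 3 when 1 array was left out. In Groups C, E and F, 0 of the 14 were DETs in either direction, where 0.102%, 0.0266% and 0.0316% of all probes were. The median difference of the 14 from Group A was 0.92, 0.88, 1.23, 0.67 and 0.52 in Groups B to F, where the median over all probes was between -0.014 and -0.0048. The probes of tm7sf2 and tlr8a were not well above background on any control array. With both set to their lower bounds, the median was 0.72, 0.74, 1.16, 0.58 and 0.41. These bounds are not strict where some arrays of the pellet group were not well above background either. That was so for tm7sf2 in Groups B, C, E and F and for tlr8a in Groups B, E and F. The DET counts include tlr8a in Groups D and B, where its lower bound was short of the 2-fold limit.

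The innate immune genes lbp, tlr8a and tnfsf14 were DETs in Group D. In Groups C, E and F, where none of them was called, lbp was higher than in Group A by 1.27, 1.51 and 1.08. There tnfsf14 was higher by 0.86, 1.12 and 0.80, and tlr8a was well above background on 4, 3 and 1 of the 4 arrays. lbp, the secreted binding protein for bacterial lipopolysaccharide, was a DET in Groups D and B, higher by 2.36 and 1.70. tlr8a, which in mammals is an endosomal receptor for RNA, was a DET in the same groups, but was well above background on 0 of the 4 control arrays. Its level was therefore at least 1.98-fold higher in Group D and about 1.82-fold or more higher in Group B. These bounds compare with the higher of its own signal and the dimmest one marked well above background on each control array. Both are short of the 2-fold limit, so the calls of tlr8a rest on control signals not well above background. In Group B tlr8a was well above background on only 3 of the 4 arrays, so the bound there is not strict. The calls in Group B were near the threshold, with adjusted p-values in limma of 0.0494 for lbp and 0.0221 for tlr8a. tnfsf14, a cytokine of the tumour necrosis factor family, was a DET in Group D, higher by 2.17, and was well above background on 1 control array. In Group B it was higher by 1.04 and was not called.

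The genes of fatty acid and sterol synthesis were DETs in Group D as well. There fads2, a fatty acid desaturase, rose by 4.37, and the fatty acid elongases elovl5 and elovl1b rose by 2.11 and 1.25. Each was also higher than in Group A in the other pellet groups, without a call. In Groups B, C, E and F fads2 was higher by 2.70, 3.26, 3.58 and 3.38, and elovl5 by 2.28, 2.41, 1.77 and 1.13. elovl1b was higher by 0.65, 0.62, 0.25 and 0.32. The difference of elovl5 was thus larger in Groups B and C than in Group D. fads2 and elovl5 were well above background on 2 control arrays each, and elovl1b on all 4. tm7sf2, a sterol reductase, was well above background on 0 of the 4 control arrays and was at least 5.51-fold higher in Group D. Its fitted level was also higher in Groups B, C, E and F, without a call, where not all 4 arrays were well above background. Of the remaining genes, gnpda1, which deaminates glucosamine phosphate, and pip4k2aa, a phosphoinositide kinase, also rose in Group D. Both were higher in the other pellet groups too, by less and without a call. serpina1 fell by 1.07 and aldh1l1, a folate enzyme, fell by 1.67 in Group D. shmt2, a mitochondrial folate enzyme, and p4hb and ssr1, which serve protein folding and import in the endoplasmic reticulum, were DETs in no group. p4hb had a difference of -0.95 in Group D with an adjusted p of 0.0159 in limma, short of the 2-fold limit.

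Likeness to acp5a was measured as the Pearson correlation r of log2 levels over the 24 arrays, with Spearman's rho beside it. The arrays share slides and groups, and no test was made. Over the 14208 probes well above background on at least 12 arrays, r had a median of 0.03 and a 95th percentile of 0.65. The 2 most alike were CUST_24353_PI428621111 (r = 0.93, rho = 0.88) and CUST_14091_PI428621111 (r = 0.93, rho = 0.90), which no table at hand pairs with a gene. By rho these probes ranked 17 and 7, and by r over the 20 pellet arrays 6 and 5. Their group means followed acp5a in that Group D was highest and Group A lowest.

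The mean level of CUST_24353_PI428621111 was 14.94, 14.68, 15.64, 14.67 and 14.77 in Groups B to F, against 13.65 in Group A. That of CUST_14091_PI428621111 was 10.54, 10.25, 11.29, 10.25 and 9.86, against 9.14 in Group A. Over the 20 pellet arrays alone r was 0.87 for each. Both were well above background on all 24 arrays, unlike acp5a in the control.

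At the other end, CUST_45914_PI428621111 (r = -0.89, rho = -0.86) and CUST_52839_PI428621111 (r = -0.84, rho = -0.80) ran most against acp5a. The first averaged 12.06, 12.33, 11.43, 12.58 and 12.26 in Groups B to F, against 13.30 in Group A, so that Group D was lowest and Group A highest. Without the control arrays r was -0.81 and -0.76. Neither has a gene name at hand.

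Among the 14 named probes, lbp had the highest r with acp5a. Over 24 arrays r was 0.88 for lbp, 0.84 for tlr8a and 0.83 for tnfsf14, and over the 20 pellet arrays it was 0.78, 0.72 and 0.77. For pip4k2aa r was 0.79 over 24 arrays and 0.72 over pellet arrays, so its place among these genes depends on the arrays used. Of the genes of lipid synthesis, fads2, elovl5 and tm7sf2 had r of 0.12, 0.34 and 0.30 over the pellet arrays and of 0.56, 0.62 and 0.64 over all 24. For elovl1b r was 0.60 over the pellet arrays and 0.72 over all 24. The probes of tlr8a and tm7sf2 were each well above background on only 15 of the 24 arrays, so their r rests in part on dimmer signals. serpina1, p4hb and aldh1l1 ran against acp5a, with r of -0.66, -0.65 and -0.64 over 24 arrays. The part of shared slides, feeds and changes in cell make-up in these correlations was not tested.

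**Figure D4:**
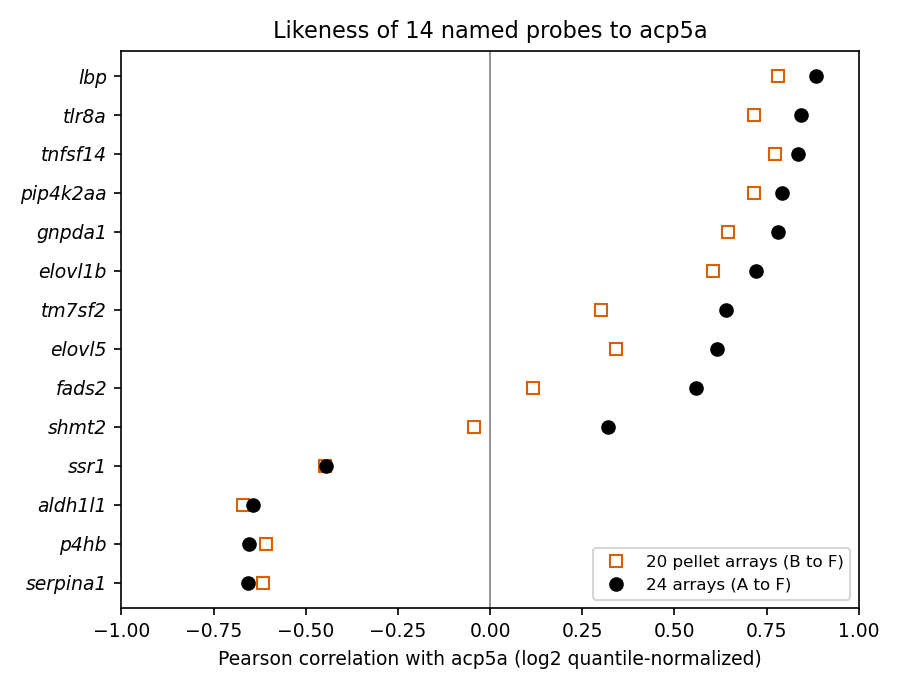
Pearson correlation with acp5a (horizontal axis) of the 14 other named probes (vertical axis), over the 20 pellet arrays of Groups B to F (open squares) and over all 24 arrays (black circles). lbp has the highest value in both sets, at 0.78 and 0.88, while fads2 is at 0.12 over pellet arrays and 0.56 over all.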

How the data were processed

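Liver RNA was hybridised to 24 one-colour Agilent arrays. The authors scanned them, and the scanner software (Feature Extraction 10.7.1.1) wrote the deposited processed intensity (background-subtracted and detrended), the background-subtracted intensity, spot and background medians, and yes or no flags of other kinds. A further deposited table gives log2 intensities after the authors' normalization, with equal quantiles in all columns. The submitters' processing notes name Partek, and the methods describe log2 transformation and an analysis of variance whose further factors are not named in the sources used here. The RNA passed a minimum integrity number.

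The processed intensity was log2-transformed, and repeat spots were averaged with outlier spots left out. These values were then quantile-normalized over all 24 arrays (R 4.3.3, limma 3.58.1). Group, replicate and slide came from the labels and scanner output, and 0 columns were left unmatched. limma was fitted to 60080 probes with feed group as the only factor, and p-values were adjusted by Benjamini-Hochberg. 48 probes lacked a value on some array. No 2 arrays were identical. A probe counted as well above background where more than 50% of its spots were. The number of arrays limits the precision. A probe so marked on no control array is given as a lower bound from group means of normalized log2 values.

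Tested on simulated data for Group F minus Group E (60032 probes), the fit recovered 64.1% of changes of 2 and 85.2% of changes of 3 (log2). It also called 5 unchanged probes. The simulated noise was independent between arrays, with no slide effect, and smaller changes were not simulated. The gene, lists and comparisons were chosen with earlier results of these data known. Named are acp5a, the 14 other probes with a symbol, and the 2 probes most like and the 2 most unlike acp5a in correlation. The lysosome and phagocyte genes considered had no named probe. The alternatives were scaling to the 75th percentile, normexp (offset 50), the deposited values, outliers kept, dim probes left out, slide or replicate number as a block, Groups A to D only, and each array left out in turn. Enrichment, growth and fillet data were not analysed here.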

Additional observations from a re-analysis of the deposited data

Results flagged for a closer look

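In Group F, replicate 2 stood apart from the other 3 livers, with an acp5a level of 7.34 (log2) where the others had 6.29, 6.17 and 6.29. Its gap to the nearest liver was 0.898 of the group's range, above the limit used for 4 samples. In Group A, replicate 3 stood apart at 5.41, with a gap of 0.879 of a range that itself was only 0.14. That range is below the median SD of 0.41 between repeat spots at such signals, so nothing is read from this gap. Of 12 sets of 4 arrays examined, 2 held such an array, and chance alone marks about 1 set in 20.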

How the results depend on the processing

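The direction of acp5a in each pellet group minus Group A held under every alternative tried. Normexp, whose offset of 50 shrinks log2 differences between dim signals, gave 0.81 (B), 0.61 (C), 1.44 (D), 0.48 (E), 0.51 (F) and 0.77 (mean of B to F). The deposited values gave 0.86, 0.73, 1.54, 0.56, 0.57 and 0.85, and the cause of these smaller values was not tested. Within slides, which hold 1 or 2 arrays per group, the values that moved by more than 1 SD were 1.90 for E on slide 1, 1.21 for B, 0.15 for E and 1.94 for F on slide 2, and 0.74 for C on slide 3. Leaving out each array in turn, the ranges were 1.62 to 1.90 (B), 1.31 to 1.76 (C), 2.63 to 2.79 (D), 0.95 to 1.49 (E), 0.95 to 1.33 (F) and 1.62 to 1.74 (mean of B to F). Group F minus Group E was -0.016 with scaling to the 75th percentile of detected probes, -0.88, 1.78 and -0.38 on slides 1, 2 and 3, and -0.27 to 0.26 with each array left out, below 0 without replicate 2 of either group. The counts of pellet arrays above all controls under other scalings, 19 or 20 of 20, were added after seeing the data. By the weaker mark, acp5a was detected on 4 arrays of Group A. The number of other named probes called was 0 in Group B with the deposited values, 4 in B and 1 in C with slide as a block, and 2 in C with the replicate block. With each array left out it was 0 to 3 in B, 0 to 2 in C, 9 to 11 in D, 0 to 2 in E and 0 in F. It was below 2 in B unless the array left out was replicate 1 of A or E, replicate 2 of E or any of F. It was above 0 in C without replicate 1 or 2 of A, 2 of E or 1, 2 or 4 of F, and in E without replicate 2 of E. The highest likeness was that of another probe, with r from 0.91 to 0.96, when slide means were removed, pellet arrays alone, ranks or deposited values were used. Same-numbered arrays of different groups had deviations with a median r of 0.20 (-0.40 to 0.57), and 18 of 24 arrays correlated best with their own number. Arrays of 1 slide had a median of 0.23. Replicate 1 of every group lay on slide 1 and replicate 4 of every group on slide 3. Number and slide therefore cannot be told apart here. The numbers were not taken as pairs in the main fit, and whether they mark pairs is not known. With the replicate block the SE was 0.35 and the adjusted p of Group F minus Group E was 0.999996. In all, 361 values were labelled the same, 47 moved and 5 reversed. Leaving out an array of a group outside a difference cannot change that difference, so many of the 361 were the same by construction. In the fits and tests of Group F minus Group E, the label rested on direction and significance and not on size.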

Other observations

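In the deposited table of processed values, ranks followed those of the same array's background-subtracted signals for 21 of 24 columns. The 3 others, replicates 2, 3 and 4 of Group F, matched the scanner output of replicates 4, 2 and 3 of that group. For acp5a the table thus lists 7.16, 7.77 and 7.10 for these 3 livers in that order, with the high value under replicate 3, while the scanner output has it under replicate 2. The Group F mean is the same either way, and values per array in the text follow the scanner output.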
